A study of Mus musculus with 6 samples.

Results

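The 35 genes described here encode endoplasmic reticulum (ER) chaperones and disulfide enzymes, the ER degradation machinery, and the sensors and targets of the unfolded protein response. They were picked by gene symbol, with no threshold on a measured value, from the 23478 genes of the count table. All 35 had a row there, and all 35 were among the 14477 genes with enough counts to be tested. They fall into 11 chaperones and their partners, 5 genes of disulfide formation, 8 of ER degradation, 4 genes of the stress sensors (with Xbp1 among them), and 7 of the PERK and ATF4 arm. RNA sequencing was done on alveolar type 2 (AT2) cells, the lung epithelial cells that make surfactant, purified from adult mice of mixed background by depletion of other cells. There were 3 libraries from mice with a conditional knockout of Abca3, called Abca3 cKO, and 3 from controls. Abca3 encodes the transporter that loads phospholipid into the lamellar bodies of these cells, and the series addresses injury and regeneration of the alveolus after its deletion. All mice, controls included, had received tamoxifen over the 6 days before the cells were taken, a drug used to switch on an inducible Cre recombinase. The labels give neither the Cre line, the promoter that drives it, the control genotype, nor whether each library is from 1 animal, so the p-values measure the spread between these libraries.

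Proteins bound for secretion or for a membrane fold in the ER, where HSP70 and HSP90 family chaperones hold unfolded chains, lectin chaperones retain glycoproteins, and protein disulfide isomerases form and rearrange disulfide bonds. When unfolded protein builds up, the membrane sensors ATF6, IRE1 and PERK act. ATF6 and the spliced form of XBP1 made by IRE1 raise transcription of chaperone and degradation genes, while PERK slows translation and favours ATF4, which raises genes of amino acid supply and, under lasting stress, the factor CHOP. AT2 cells secrete surfactant proteins that are processed in this pathway, and misfolded surfactant protein C is a known cause of ER stress in them. A count per gene does not separate spliced from unspliced Xbp1, and it does not show the cleavage or phosphorylation of the sensors.

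The promoters of these genes are shown because a DNA element is the textbook mark of the ATF6 and XBP1 arm. Windows from RefSeq (GRCm38.p6), which run from 250 bases before to 50 bases after the annotated start, were matched for 31 of the 35 genes, and Hyou1, Manf, Derl1 and Atf6 were not matched. The ER stress response element (ERSE: CCAAT, then 9 bases of any kind, then CCACG, searched on both strands with no mismatch) was found in 10 of these 31 genes, against 37 of the 27025 genes with a window, which is 0.137%. It was present in 6 of 9 chaperones, 2 of 5 disulfide genes, 2 of 7 degradation genes, 0 of 3 sensor genes and 0 of 7 genes of the PERK and ATF4 arm. ERSE contains a CCAAT box, itself present in 41.1% of all genes with a window. The 9 genes with a single ERSE are shown on the strand on which the element reads forward, with its fixed letters in capitals.
Hspa5 (chr2:34772020-34772048, plus strand): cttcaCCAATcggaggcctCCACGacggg
Calr (chr8:84847070-84847098, plus strand): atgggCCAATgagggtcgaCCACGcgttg
Dnajc3 (chr14:118937822-118937850, plus strand): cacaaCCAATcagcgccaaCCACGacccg
Pdia6 (chr12:17266486-17266514, plus strand): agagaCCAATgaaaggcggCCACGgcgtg
Ero1lb (chr13:12565677-12565705, minus strand): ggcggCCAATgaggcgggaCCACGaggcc
Syvn1 (chr19:6046527-6046555, plus strand): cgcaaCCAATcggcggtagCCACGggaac
Derl3 (chr10:75893237-75893265, minus strand): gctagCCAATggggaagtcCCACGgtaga
Canx (chr11:50325795-50325823, minus strand): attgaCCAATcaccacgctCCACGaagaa
Creld2 (chr15:88819515-88819543, minus strand): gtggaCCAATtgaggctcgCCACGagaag

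Hsp90b1 carried 2 copies of ERSE in opposite directions. The stretch from 222 to 79 bases before its start is shown in full on the gene's strand, with the fixed letters of both copies in capitals.
Hsp90b1 (chr10:86705523-86705666, minus strand): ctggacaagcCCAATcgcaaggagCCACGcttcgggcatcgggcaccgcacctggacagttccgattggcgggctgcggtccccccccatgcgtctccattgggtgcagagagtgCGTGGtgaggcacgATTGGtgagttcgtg

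The related element ERSE-II (ATTGG, 1 base of any kind, then CCACG), present in 0.0444% of all genes with a window, was found in Herpud1 and Dnajb11, and the XBP1 element TGACGTGG, present in 0.714%, in none of the 31. The ATF4 element (TGATGNAA, 4.51% of all genes) was found in Asns, Chac1 and Trib3 of the PERK and ATF4 arm and in Herpud1. The copies before the RefSeq start are shown for comparison with the chaperone elements, in capitals as above. Those of Dnajb11 and Trib3 lie past that start. By the GENCODE coordinates used for gene positions, the printed elements of Hspa5 and Asns lie inside the gene, so the side of the start depends on the annotation. A match to letters is not evidence of binding.
Herpud1 ERSE-II (chr8:94386372-94386392, plus strand): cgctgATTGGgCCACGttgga
Herpud1 ATF4 element (chr8:94386312-94386329, minus strand): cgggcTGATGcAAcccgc
Asns ATF4 element (chr6:7693220-7693237, minus strand): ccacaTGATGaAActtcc
Chac1 ATF4 element (chr2:119351044-119351061, minus strand): aggagTGATGcAAcggca

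Depth was 23531330 to 26071229 counts per library. Levels are in CPM, counts scaled to a common library size with TMM factors, and a pair of values joined by ± is a mean and its SD over 3 libraries. A log2 fold change or log2 ratio sets Abca3 cKO over control, from edgeR's quasi-likelihood test, with p-values adjusted by Benjamini-Hochberg over all 14477 genes. Of these genes 55 passed an adjusted p of 0.05, which is 0.38%, and 38 of them were higher in Abca3 cKO, which is 0.262%. Abca3 itself stood at 571, 611 and 606 CPM in the Abca3 cKO libraries and 635, 694 and 689 CPM in the controls (log2 ratio −0.17, adjusted p = 0.696), a small difference that does not check the labels, because a count covers the whole gene and the deleted exons are not named. The AT2 genes Slc34a2 and Sftpc were abundant, at 19819.7 ± 986 and 22507 ± 4006 CPM in controls, beside 67103 ± 8267 CPM of the club cell gene Scgb1a1. Sex-linked genes set control replicate 2 apart, with Xist at 2345 CPM against 5.36 to 9.36 CPM in the other 5 libraries and no count of the Y-linked Ddx3y. Exons of 11 of the 35 genes overlap those of another annotated gene, for 10 of them on the opposite strand. Whether the counting used strand is not given in the sources used here. Values of Hsp90b1, Dnajb9, Manf, Pdia3, Pdia6, Syvn1, Derl2, Eif2ak3, Ddit3 and Ppp1r15a carry that uncertainty. The overlap of Pdia4, with Mir704, is on its own strand, so the use of strand would not resolve it. In a bulk sample, fewer cells of a type and less RNA per cell cannot be told apart.

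None of the 35 genes passed an adjusted p of 0.05 by edgeR, and none did by DESeq2, which called 1.66% of all genes. Before adjustment 11 genes had a p under 0.05, against 9.23% of all genes tested. Of these 11, 9 had a higher mean in Abca3 cKO and 2 a lower one, where 5.07% of all genes were higher at that threshold and 4.16% lower. All 9 were chaperone or disulfide genes and both lower genes, Trib3 and Asns, belong to the PERK and ATF4 arm. The 16 chaperone and disulfide genes all had a log2 fold change above 0, as did 50.3% of all genes, and their median was 0.33 against 0.00177 over all genes. The median was 0.12 for the 8 degradation genes, 0.10 for the 4 sensor genes and −0.07 for the 7 genes of the PERK and ATF4 arm. The difference between branches was not tested. Marker lists of several cell types moved with the groups as well. The median log2 fold change was 0.35 for 10 AT2 markers, 9 of them above 0 and Sftpc at −0.36. It was 0.43 for 6 mesenchymal markers, all above 0, and −0.34 for 8 AT1 markers, all under 0. Their part in the levels of the 35 genes was not tested.

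**Figure D1:**
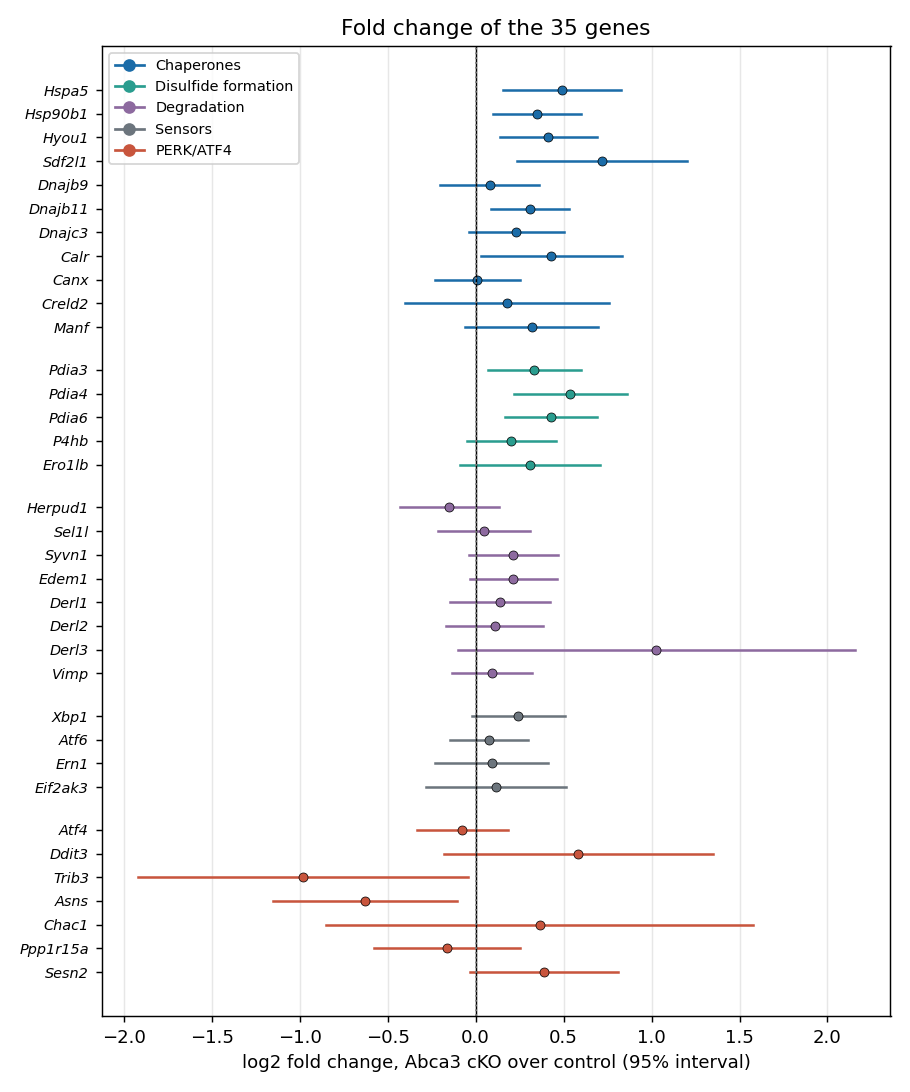
Log2 fold change (Abca3 cKO over control, edgeR) of each of the 35 genes, coloured by branch, with its 95% interval as a bar. The intervals lie above 0 for 9 chaperone and disulfide genes and below 0 for Trib3 and Asns, and no gene passed an adjusted p of 0.05.

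Among the large chaperones, Hspa5, which encodes BiP, the HSP70 chaperone of the ER (chromosome 2, 34771970 to 34777547, plus strand, GRCm38 throughout), stood at 818, 780.3 and 514 CPM in Abca3 cKO replicates 1, 2 and 3 and at 505, 471 and 528 CPM in control replicates 1, 2 and 3. The first 2 Abca3 cKO libraries lay above all controls and the third inside their range, so the groups overlapped (log2 ratio 0.49 with an SE of 0.156, adjusted p = 0.285 by edgeR, 95% interval of the ratio 1.11 to 1.77). Without Abca3 cKO replicate 3 the log2 fold change of Hspa5 was 0.67 and its adjusted p 0.0498, the only call of any of the 35 genes in the 14 alternative analyses, over which the adjusted p of Hspa5 ran up to 0.685. Hsp90b1, the ER member of the HSP90 family known as GRP94 (chromosome 10, 86690209 to 86705509, minus strand), was at 1406, 1255 and 1136 CPM against 1017, 964 and 998 CPM (log2 ratio 0.35 with an SE of 0.117, adjusted p = 0.313). All 3 Abca3 cKO libraries lay above the 3 controls. Hyou1, a large HSP70 relative that exchanges the nucleotide of BiP, was at 145, 144 and 108 CPM against 107, 91.6 and 99.6 CPM (log2 ratio 0.41 with an SE of 0.129, adjusted p = 0.267). Here too the groups did not overlap, though Abca3 cKO replicate 3 cleared the highest control narrowly. Such a separation with Abca3 cKO above was found in 8 of the 35 genes and in 7.34% of all genes tested.

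The BiP partners of the DNAJ family differed among themselves. Dnajb11, a BiP cochaperone that binds unfolded chains, was at 135, 127 and 124 CPM in Abca3 cKO and 102, 108 and 101 CPM in controls without overlap (log2 ratio 0.31, adjusted p = 0.319). Sdf2l1, which forms a complex with Dnajb11, was at 23.3, 22.97 and 13.4 CPM against 14.1, 11.8 and 10.3 CPM (log2 ratio 0.72 with an SE of 0.225, adjusted p = 0.267). Its fold change was the largest among the chaperones, at 1.65 (95% interval 1.18 to 2.301), and rested on the first 2 Abca3 cKO libraries, the third lying inside the control range. Dnajc3, which inhibits PERK and assists BiP, was at 361 ± 31.8 against 307 ± 41.5 CPM, and Dnajb9, a cochaperone that restrains IRE1, at 69.7 ± 6.98 against 65.9 ± 8.304 CPM. The intervals of the ratio ran from 0.974 to 1.41 for Dnajc3 and from 0.869 to 1.29 for Dnajb9, so an equal level is inside both.

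Both lectin chaperones bind monoglucosylated glycoproteins, calreticulin (Calr) in the lumen and calnexin (Canx) in the membrane. Calr stood at 231, 176 and 130.1 CPM in Abca3 cKO and 117, 134 and 148 CPM in controls (log2 ratio 0.43 with an SE of 0.182, adjusted p = 0.493). The order of the Abca3 cKO libraries was that of Hspa5, with replicate 1 highest and replicate 3 inside the control range, and without replicate 1 the log2 fold change was 0.20. Canx stood at 476, 400.5 and 431 CPM against 445, 444 and 409 CPM, a ratio of 1.007 (95% interval 0.852 to 1.19), and the groups overlapped throughout. Of the small ER stress proteins, Manf, a secreted factor retained in the ER by BiP, was at 28.8 ± 4.13 against 23.1 ± 4.24 CPM. Creld2, which has isomerase activity on disulfides, had its highest and its lowest level within the Abca3 cKO group, at 48.9, 44.3 and 21.3 CPM against 32.9, 31.5 and 36.7 CPM (log2 ratio 0.18, adjusted p = 0.908). Its log2 fold change was 0.47 without Abca3 cKO replicate 3 and −0.04 without replicate 1.

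**Figure D2:**
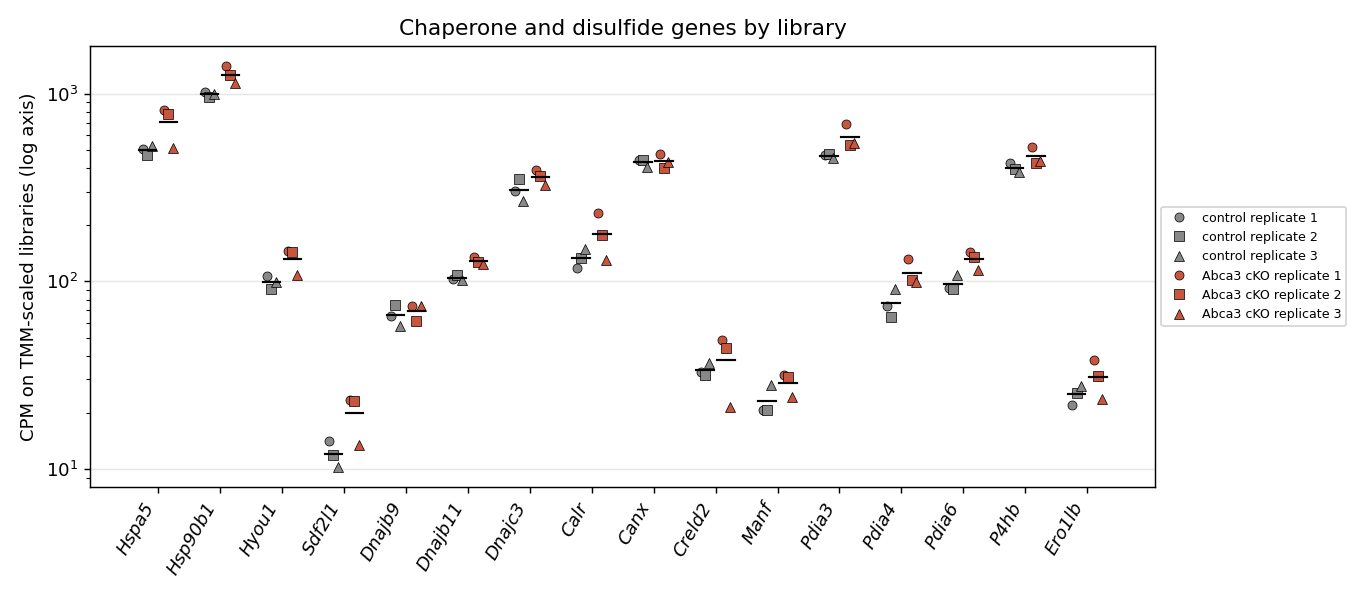
Level of the 11 chaperone genes and 5 disulfide genes in each library, in CPM on a log axis, with a horizontal line at each group mean. Abca3 cKO replicate 1 (circles) is above all controls for all but Dnajb9, while replicate 3 (triangles) lies inside the control range for 7 of the 11 chaperones and for Ero1lb, and below it for Creld2.

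The disulfide isomerase genes Pdia4 and Pdia6 had the smallest unadjusted p-values of the 35 genes. Pdia4 (chromosome 6, 47796141 to 47813430, minus strand), also called ERp72, was at 132, 102 and 99.1 CPM in Abca3 cKO and 73.8, 64.6 and 91.4 CPM in controls (log2 ratio 0.54 with an SE of 0.149, adjusted p = 0.189, unadjusted p = 0.00288). Pdia6 (chromosome 12, 17266545 to 17284770, plus strand), which also limits IRE1 signalling, was at 144, 134 and 115 CPM against 91.98, 91.3 and 108 CPM (log2 ratio 0.43 with an SE of 0.122, adjusted p = 0.202, unadjusted p = 0.00321). In both genes every Abca3 cKO library lay above every control. Pdia3, the isomerase that works with calreticulin and calnexin on glycoproteins, was at 692, 535 and 544 CPM against 472, 478 and 454 CPM, again without overlap (log2 ratio 0.33, adjusted p = 0.380). Without Abca3 cKO replicate 1, its highest library, the log2 fold change of Pdia3 was 0.20. P4hb, the classical isomerase PDI, was at 463 ± 52.3 against 402 ± 23.55 CPM and Ero1lb, an oxidase that recharges the isomerases, at 31.1 ± 7.33 against 25.1 ± 2.88 CPM. Both overlapped between groups, with intervals of the ratio of 0.966 to 1.37 and 0.942 to 1.63, and without Abca3 cKO replicate 1 their log2 fold changes were 0.10 and 0.13, against 0.20 and 0.31 with it.

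The degradation genes lay closer to equality. Herpud1, a membrane protein that assembles the degradation complex and a common read-out of ER stress, had a lower mean in Abca3 cKO, at 84.7, 87.5 and 104 against 109.7, 85.4 and 111 CPM (log2 ratio −0.15, adjusted p = 0.815). The groups overlapped, and it was the only 1 of the 8 degradation genes with a log2 fold change under 0. Syvn1, the ubiquitin ligase HRD1, was at 67.01, 67.3 and 67.2 CPM in Abca3 cKO and 58.1, 62.003 and 53.4 CPM in controls. This was the only degradation gene without overlap, with a spread of 0.136 CPM (SD) in Abca3 cKO against 4.29 CPM in controls and an adjusted p of 0.643. Its partner Sel1l stood at 339 ± 31.2 against 328 ± 38.7 CPM, and Edem1, a lectin that selects misfolded glycoproteins, at 119 ± 8.18 against 103 ± 10.7 CPM. Of the membrane proteins that help move substrates to the cytosol, Derl1 was at 66.1 ± 8.81 against 60.1 ± 4.76 CPM, Derl2 at 56.7 ± 1.59 against 52.6 ± 6.16 CPM and Vimp at 115 ± 2.77 against 108 ± 6.04 CPM. Derl3, the stress-inducible relative found mainly in secretory cells, was scarce, at 2.53, 1.48 and 3.27 CPM against 1.31, 1.62 and 0.635 CPM. Its ratio of 2.04 had a 95% interval of 0.932 to 4.45, with as few as 16 reads in a library.

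None of the sensor genes separated the groups. Xbp1 (chromosome 11, 5520659 to 5525893, plus strand) stood at 149.7, 145 and 113 CPM in Abca3 cKO and 120.5, 114 and 109 CPM in controls (log2 ratio 0.24 with an SE of 0.123, adjusted p = 0.604). As with Hspa5, Abca3 cKO replicates 1 and 2 lay above all controls and replicate 3 among them. Atf6 was at 214 ± 2.37 against 203 ± 10.98 CPM, Ern1, which encodes IRE1, at 41.4 ± 6.38 against 38.9 ± 3.23 CPM, and Eif2ak3, which encodes PERK, at 18.4 ± 2.52 against 17.03 ± 2.78 CPM. The 95% intervals of the ratio were 0.903 to 1.23, 0.853 to 1.33 and 0.821 to 1.43, and the groups overlapped in all 3.

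The PERK and ATF4 arm had no common direction. Atf4, its transcription factor, was at 74.01, 84.9 and 84.8 CPM in Abca3 cKO and 80.7, 80.1 and 95.8 CPM in controls (log2 ratio −0.07, adjusted p = 0.920), with overlapping groups. Trib3, a pseudokinase induced by ATF4, was at 0.844, 2.06 and 1.78 CPM against 3.34, 2.86 and 3.09 CPM (log2 ratio −0.98 with an SE of 0.438, adjusted p = 0.507). All 3 Abca3 cKO libraries lay below the 3 controls, as in 6.76% of all genes, at counts as low as 20 reads. Asns, asparagine synthetase, was at 15.1, 11.6 and 12.9 CPM against 29.1, 18.1 and 14.04 CPM (log2 ratio −0.63 with an SE of 0.243, adjusted p = 0.411). The control group spread more widely here, and the log2 fold change was −0.29 without control replicate 1, its highest library. Ppp1r15a, also called GADD34, which reverses the translation block, was at 15.04 ± 3.31 against 16.8 ± 1.397 CPM.

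The remaining genes of this arm had higher means in Abca3 cKO and passed no threshold. Ddit3, which encodes CHOP, was at 5.74, 3.58 and 3.31 CPM against 2.11, 3.24 and 3.05 CPM without overlap (log2 ratio 0.58 with an SE of 0.356, adjusted p = 0.682), and without Abca3 cKO replicate 1, its highest library, the log2 fold change was 0.29. On the deposited RPKM scale the groups overlapped, at 6.12, 3.91 and 3.76 against 3.54, 4.41 and 4.51 RPKM, and the log2 fold change on log2(RPKM + 1) was 0.10. Exons of Ddit3 overlap those of Mars on the other strand, so its reads are uncertain. Sesn2, a stress-induced regulator of mTORC1, was at 14.4, 17.9 and 20.8 CPM against 12.04, 12.4 and 16.1 CPM (log2 ratio 0.39, adjusted p = 0.604). Chac1, which degrades glutathione, was at 2.65 ± 1.16 against 2.06 ± 1.33 CPM, with an interval of the ratio of 0.555 to 2.98 and as few as 14 reads in a library.

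**Figure D3:**
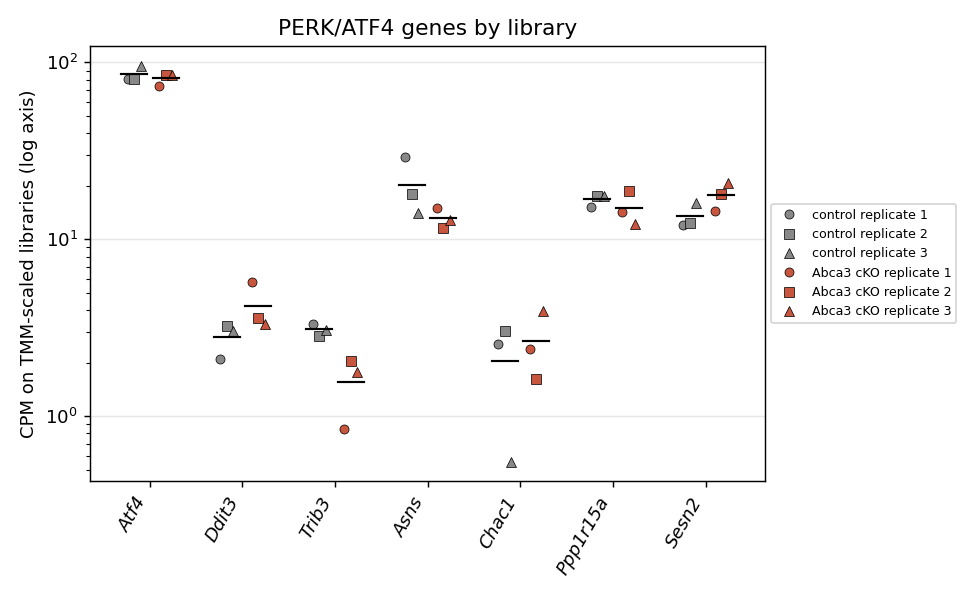
Level of the 7 genes of the PERK and ATF4 arm in each library, in CPM on a log axis, with a horizontal line at each group mean. The Abca3 cKO libraries lie below all controls for Trib3 and above them for Ddit3, and the groups overlap for the other 5 genes.

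In the median over the branch, the chaperone levels of the Abca3 cKO libraries lay further apart than those of the controls. This did not hold for every gene, as the SD relative to the mean was larger in controls for Dnajb9, Dnajc3 and Manf. The median log2 ratio of the 11 chaperones to the control mean was 0.50, 0.39 and 0.09 in Abca3 cKO replicates 1, 2 and 3, and −0.02, −0.03 and 0.00273 in the controls. For the 5 disulfide genes it was 0.56, 0.33 and 0.22 against −0.05, −0.03 and 0.15. Replicate 1 exceeded all controls in 10 of the 11 chaperones and replicate 3 in 3 of them. The PERK and ATF4 arm had −0.21, −0.01 and −0.01, so the library highest in chaperones was the lowest here. Among the 12 cytosolic heat shock genes the same medians were 0.09, 0.16 and −0.46, with replicate 3 again the lowest. In control replicates 1, 2 and 3 they were −0.07, 0.06 and −0.01, so here too the Abca3 cKO libraries lay further apart. Leaving out 1 library at a time gave 7 to 12 of the 16 chaperone and disulfide genes higher at an unadjusted p under 0.05, against 9 with all libraries, and 14 to 16 above 0.

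**Figure D4:**
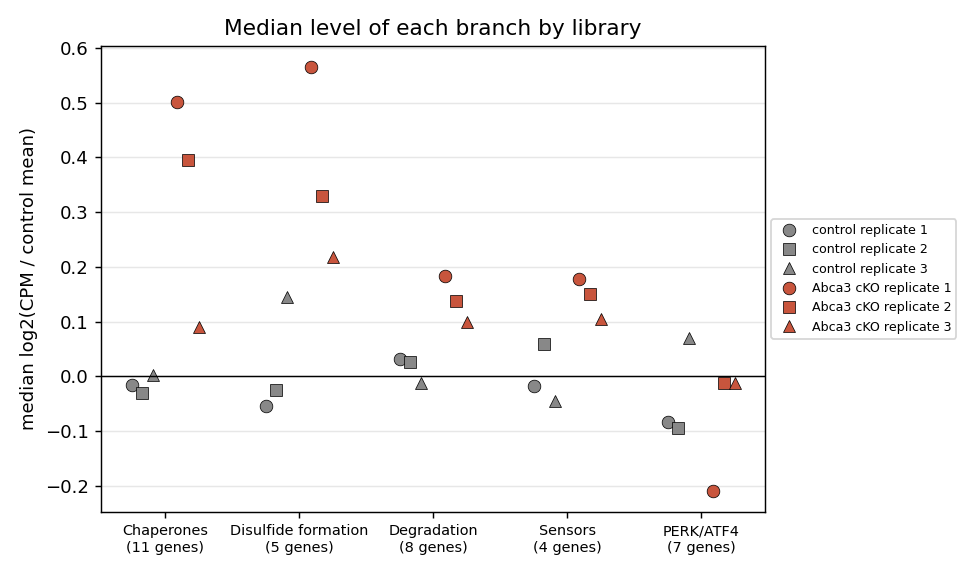
Median over the genes of each branch of the log2 ratio of CPM to the control mean, by library. In the chaperone branch Abca3 cKO replicates 1 and 2 stand at 0.50 and 0.39 and replicate 3 at 0.09, close to the controls, and in the PERK and ATF4 arm the groups overlap.

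Levels were compared between genes on the deposited RPKM scale, which is per length. In controls Hsp90b1 and Hspa5 were the most abundant of the 35, at 184 ± 3.33 and 121 ± 7.14 RPKM, followed by P4hb at 100.1 ± 4.04, Pdia3 at 68.7 ± 4.42 and Vimp at 55.6 ± 2.95 RPKM. Hyou1 stood at 14.2 ± 0.898 RPKM and Sdf2l1 at 10.3 ± 1.21 RPKM. Xbp1, at 28.2 ± 1.099 RPKM, exceeded Atf6 at 10.9 ± 0.725, Ern1 at 5.55 ± 0.615 and Eif2ak3 at 2.15 ± 0.354 RPKM. Atf4 was at 39.9 ± 5.04 RPKM while the genes Asns, Ppp1r15a, Sesn2 and Ddit3 of its arm lay from 4.16 to 6.18 RPKM. Trib3 and Chac1 of that arm were at 1.35 ± 0.0575 and 0.898 ± 0.606 RPKM, and the degradation gene Derl3 at 0.692 ± 0.322 RPKM. In this order the 5 most abundant genes, Hsp90b1 to Vimp, each differed from the next by more than the sum of both SDs, while the steps from Atf4 to Calr, Dnajb11, Herpud1 and Canx were each smaller than it.

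Other genes of the pathway were read from wider lists. Of all genes tested, 0.38% passed by edgeR, 50.3% had a log2 fold change above 0 and 7.34% did not overlap with Abca3 cKO above. Of 23 further ER folding genes 1 passed, Fkbp2, a peptidyl-prolyl isomerase of the ER, which stood at 31.5, 39.7 and 32.3 CPM in Abca3 cKO and 21.2, 18.5 and 18.1 CPM in controls and rose without overlap (log2 ratio 0.84 with an SE of 0.160, adjusted p = 0.0374 by edgeR). The list had 16 of 23 log2 fold changes above 0 and a median of 0.09. Among 22 genes of translocation, signal peptide removal and N-glycosylation 0 passed, 21 were above 0 and the median was 0.18. The smallest p in that list was for Spcs2, a signal peptidase subunit, at 74.3 ± 3.88 against 61.1 ± 6.501 CPM (log2 ratio 0.28, adjusted p = 0.490). While 8 of the 22 did not overlap, all with Abca3 cKO above, only 1 had an unadjusted p under 0.05. Of 17 further degradation genes 0 passed, with a median of 0.01, and Edem2 was at 14.6 ± 0.701 against 10.8 ± 0.628 CPM. Of 15 further sensor and membrane-factor genes 0 passed, with Creb3l1 at 87.7 ± 15.4 against 67.9 ± 7.45 CPM and Mbtps2, the protease that cleaves ATF6 in the membrane, at 32.1 ± 2.86 against 40.8 ± 6.08 CPM.

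Further ATF4 targets mostly had log2 fold changes under 0, as Trib3 and Asns did. Of 29 genes 0 passed by edgeR and 1 by DESeq2, against 0.38% and 1.66% of all genes. The median was −0.13, and 8 had a log2 fold change above 0, where 50.3% of all genes did. By library the groups overlapped. The median log2 ratio to the control mean was −0.18, −0.11 and −0.08 in Abca3 cKO replicates 1, 2 and 3, and 0.12, 0.03 and −0.16 in controls. In 2 of the 29 every Abca3 cKO library lay below the controls, against 6.76% of all genes. The smallest p was for Aldh1l2, a mitochondrial folate enzyme, at 3.33, 3.08 and 5.695 CPM in Abca3 cKO and 15.7, 16.4 and 5.16 CPM in controls (log2 ratio −1.62, adjusted p = 0.192), with control replicate 3 inside the Abca3 cKO range. Mthfd2, also of mitochondrial folate metabolism, was at 0.211, 0.740 and 0.646 CPM against 2.32, 1.08 and 1.03 CPM, and Phgdh, which starts serine synthesis, at 1.14, 0.234 and 0.606 CPM against 2.79, 1.66 and 0.873 CPM. These low levels rest on as few as 5 reads in a library for Mthfd2 and 6 for Phgdh. Of 12 cytosolic heat shock genes 0 passed and the directions were mixed: Hspb1 was at 34.1 ± 0.317 against 24.1 ± 1.499 CPM and Bag3 at 61.4 ± 2.72 against 46.3 ± 1.27 CPM, while Dnajb1 was at 78.4 ± 5.43 against 104 ± 16.5 CPM. Over the wider pathway and heat shock lists, each list had 0 to 2 genes higher and 0 to 2 lower at an unadjusted p under 0.05. Of all genes, 5.07% were higher and 4.16% lower at that threshold.

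Marker lists of other cells that the preparation could hold were summed in each library. Over all genes tested, 7.34% did not overlap with Abca3 cKO above and 6.76% with Abca3 cKO below. At an unadjusted p under 0.05, 5.07% were higher and 4.16% lower, and 0.38% passed by edgeR and 1.66% by DESeq2. Of the 6 mesenchymal markers 5 did not overlap, all with Abca3 cKO above, and 5 were higher at an unadjusted p under 0.05. None passed by edgeR or DESeq2, and their summed level was 1049 to 1594 CPM in Abca3 cKO and 765 to 1024 CPM in controls. The mesenchymal sum was 1594, 1049 and 1071 CPM in Abca3 cKO replicates 1, 2 and 3, highest in replicate 1 as the chaperone medians were. Club cell marker sums of 88036, 68598 and 54202 CPM fell from replicate 1 to 3, as those medians also did. So did endothelial marker sums, at 88.8, 59.3 and 43.7 CPM. Sums of AT2, AT1, ciliated, plasma and B cell, macrophage, and T and NK cell markers did not fall in that order. They were 97154, 96355 and 109696 CPM for AT2 markers and 2470, 2883 and 2091 CPM for AT1 markers. In control replicates 1, 2 and 3 the club cell sums were 78098, 84148 and 66241 CPM. The 10 AT2 markers summed to 96355 to 109696 CPM in Abca3 cKO and 82843 to 97171 CPM in controls. Of these, 7 did not overlap with Abca3 cKO above. Before adjustment a p under 0.05 was reached by 6 with a higher mean and 1, Sftpc, with a lower one. After adjustment 1 of the 10 passed by edgeR and 3 by DESeq2. The 8 AT1 markers summed to 2091 to 2883 CPM in Abca3 cKO and 2681 to 3634 CPM in controls, where 2 did not overlap, 3 were lower at an unadjusted p under 0.05, and 0 passed by edgeR and 2 by DESeq2. The 7 club cell markers summed to 54202 to 88036 CPM in Abca3 cKO and 66241 to 84148 CPM in controls, and the 6 ciliated cell markers to 192 to 222 CPM in Abca3 cKO and 240.1 to 252 CPM in controls, with all 6 lower in mean. The plasma and B cell list summed to 469 to 509.9 CPM in Abca3 cKO and 412 to 506 CPM in controls, mostly from Sdc1, which epithelium also expresses. Macrophage markers summed to 8.52 to 12.4 CPM in Abca3 cKO and 9.403 to 31.5 CPM in controls with C1qa at 0 in every library. T and NK cell markers summed to 0 to 0.162 CPM in Abca3 cKO and 0.198 to 0.549 CPM in controls, and 6 endothelial markers to 43.7 to 88.8 CPM in Abca3 cKO and 57.8 to 99.1 CPM in controls. Of 12 tested immediate early genes, which respond to handling of cells, 0 passed by edgeR and 1 by DESeq2, 2 were lower at an unadjusted p under 0.05, and the median was −0.09. The part of the other lists in the levels of the 35 genes was not tested either.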

How the data were processed

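RNA was amplified before library preparation, per the labels' protocols. The authors deposited a table of read counts per gene and a table of RPKM per gene, each for all 6 libraries. Per the submitters' processing notes, the build was mm10 (GRCm38) and the tools were DESeq, Cufflinks 2.0.2, TopHat2 2.0.8 and Bowtie2 2.1.0. Not given in the sources used here are the tool behind each table, the annotation and the use of strand.

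The deposited counts were filtered with filterByExpr, scaled by TMM and fitted with edgeR 4.0.16 (robust quasi-likelihood test, R 4.3.3), with group as the only term and p-values adjusted over the 14477 genes tested. The 95% intervals come from that fit. Alternatives were RLE and upper quartile scaling, no filter, DESeq2 1.42.0, limma 3.58.1 on log2(RPKM + 1) or log2(RPKM + 0.1), a replicate block and leaving out each library. Replicates of a group differed by 30.5 to 52.1 chi-square per degree of freedom, far above sampling noise, so no library was counted as a repeat sequencing of another. As the RNA was amplified, this value cannot tell separate animals from separate preparations of the same animal. On simulated counts for the 14477 genes of this comparison the test called 38% of 50 genes changed 1.5-fold and 72% of 50 changed 2-fold. It also called 10 unchanged genes there, and 8 genes in a simulation with no change. The changed genes were drawn above a minimum mean level that Derl3, Chac1, Trib3 and Ddit3 do not reach, so these rates do not cover them.

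The 35 genes and the other lists were chosen with earlier results of these data known. All 35 genes are named. Of each wider list, at most 3 genes with the smallest p are named, and of each marker list up to 3 by level. Gene coordinates are from GENCODE on GRCm38 and promoter sequences from RefSeq on GRCm38.p6. A further deposited sheet of 29 gene symbols without values was not used. The genes outside the 35 whose deviations were most like those of the chaperones, and part of a marker list, are not reported here.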

Additional observations from a re-analysis of the deposited data

How the results depend on the processing

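Of 490 values for single genes among the 35 under 14 alternatives, 479 kept their direction and their side of the threshold, 1 crossed it (Hspa5, without Abca3 cKO replicate 3) and 10 reversed, all with 1 library left out. Leaving out 1 library gave log2 fold changes of −0.0059 to 0.18 for Dnajb9, −0.059 to 0.067 for Canx, −0.042 to 0.47 for Creld2, −0.0504 to 0.0996 for Sel1l, −0.012 to 0.21 for Eif2ak3, −0.12 to 0.011 for Atf4 and −0.088 to 0.76 for Chac1. Over all genes, 55 were called, against 132 with no filter, 241 by DESeq2, 21 on log2(RPKM + 1), 22 on log2(RPKM + 0.1), 2 on log2(RPKM + 1) with no filter and 21 to 50 with 1 library left out. Leaving out 1 library gave 0 to 1 of the 35 genes called, 8 to 14 at an unadjusted p under 0.05, and branch medians of 0.24 to 0.43 for chaperones, 0.20 to 0.47 for disulfide genes, 0.0804 to 0.15 for degradation, 0.077 to 0.19 for sensors and −0.12 to −0.014 for the PERK and ATF4 arm. The cause of these shifts was not tested. Deviations of same-numbered libraries of the 2 groups had correlations of 0.076, −0.030 and −0.027, inside the range of −0.082 to 0.105 for differently numbered ones. No pairing by number was seen, though with 3 libraries per group these values cannot exclude one. A fit with the replicate number as a block called 33 genes. Depth limits Derl3, Chac1, Trib3 and Ddit3, each with a library of 50 reads or fewer.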

Other observations

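Outside the 35 genes, 27 others carried an ERSE in their promoter window, of which 10 were tested. None passed an adjusted p of 0.05 by edgeR, and DESeq2 called 1. The 3 higher at an unadjusted p under 0.05, where 5.07% of all genes were, were Xlr3a, Xlr3b and Xlr3c, near-identical X-linked copies whose reads are uncertain and which may count as 1 locus. The genes named from this set were chosen after their values were seen. Alg12, a mannosyltransferase of N-glycan assembly in the ER, was at 24.3, 22.9 and 20.9 CPM in Abca3 cKO and 13.6, 16.5 and 23.4 CPM in controls (log2 ratio 0.35, adjusted p = 0.659). Xlr3a, Xlr3b and Xlr3c had mean levels of 1.78, 2.36 and 1.35 CPM against 0.532, 0.428 and 0.241 CPM. Within the folding genes, the 8 with an ERSE had a median log2 fold change of 0.33 and the 6 with a window and no ERSE 0.32, with ranges over single genes of 0.01 to 0.49 and 0.08 to 0.72. The difference was not tested.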
